A study of Mus musculus with 12 samples.

Results

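The 50 genes described here are mouse imprinted genes, that is, genes of which the copy inherited from one parent is active and the copy from the other parent is silenced in at least some tissues. They were given as a list of symbols, chosen with earlier results of these data known. All 50 were found by symbol in the deposited count table, among 19680 genes. By the parent whose copy is usually active they fall into 12 maternally expressed genes, 24 paternally expressed genes and 14 genes whose imprint depends on tissue or isoform, and by position into 19 loci. With a minimum of 50 counts over all libraries, 43 members were measured, and Airn, Kcnq1, Rasgrf1, Slc22a18, Ascl2, Zim1 and Peg12 stayed under it.

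Expression was measured by RNA sequencing in CJ9 cells, a line of mouse embryonic stem cells, after direction to endoderm or mesoderm for 5 days. The cells were wild type (label WT) or deleted for Arid4b (label arid4b∆, called knockout below), so that there are 4 groups of 3 libraries: wild type endoderm, knockout endoderm, wild type mesoderm and knockout mesoderm. The series asks what Arid4b, a subunit of the SIN3-HDAC corepressor complex, does in the commitment of these cells. The labels do not say how the deletion was made, from how many clones the knockout cells came, or whether replicate libraries stem from separate cultures. The spread that each p-value rests on is therefore that between libraries and may be technical only.

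Imprinting is set in the germ line, where DNA methylation is laid down on one parental copy of a control region, and it is kept through early development by proteins such as ZFP57 and TRIM28 that hold methylation there. Many imprinted genes act on growth: paternally expressed genes such as Igf2 and Peg3 and maternally expressed genes such as Igf2r, Grb10, Cdkn1c and Phlda2 take part in the growth of embryo and placenta. Arid4b and its paralog Arid4a have been tied in mice to chromatin marks at the Snrpn imprinting centre. The counts used here do not tell the parental copies apart, so that every value below is the sum of both copies and no value is a measure of imprinting itself.

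The libraries held between 10351074 and 35660107 counts, of which the ribosomal RNA precursor Rn45s took 79.7% to 82.4%. Without it, 1949299 to 6678892 counts remained, the fewest in wild type mesoderm library 2. Of these, Mir6236 and Lars2 took 49.7% (wild type endoderm library 3) to 69.5% (knockout mesoderm library 2), and 60.3% in wild type mesoderm library 2. The depth left for all other genes was thus lower than these totals. Levels are given below in CPM, counts scaled to the totals with Mir6236 and Lars2 after TMM normalisation. A count of 3 in a single library corresponds to 0.506 to 1.55 CPM, which was taken as the floor of detection for counting error. Arid4b itself did not fall in the libraries labelled knockout. It stood at 41.7, 44.7 and 36.8 CPM in wild type endoderm and 42.8, 51.1 and 45.0 in knockout endoderm, and at 37.0, 46.5 and 42.9 in wild type mesoderm against 44.9, 41.7 and 47.6 in knockout mesoderm. Reads outside a deleted part can remain, so whole-gene counts check nothing about the deletion, and each direction below rests on the labels.

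Promoter windows from RefSeq (GRCm38.p6, 250 bases before to 50 bases after an annotated start) were matched for 39 of the 50 genes. They are shown for 6 of the 13 genes called both for genotype and between the lineages in wild type, with 1 window for each. Where a gene has several windows, a window with a match is shown. The windows shown are examples, so the share of them with a match does not stand for the 13 genes or for all imprinted genes. Capitals mark TGCCGC or its reverse complement GCGGCA, the hexamer that ZFP57 reads when it is methylated.
Peg3, chr7:6730370-6730669, minus strand: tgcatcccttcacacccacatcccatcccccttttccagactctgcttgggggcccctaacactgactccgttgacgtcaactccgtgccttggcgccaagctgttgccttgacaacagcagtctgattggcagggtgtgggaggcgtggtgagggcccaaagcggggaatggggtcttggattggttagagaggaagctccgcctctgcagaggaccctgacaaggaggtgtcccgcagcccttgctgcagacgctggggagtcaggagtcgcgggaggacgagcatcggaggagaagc
Mest, chr6:30737800-30738099, plus strand: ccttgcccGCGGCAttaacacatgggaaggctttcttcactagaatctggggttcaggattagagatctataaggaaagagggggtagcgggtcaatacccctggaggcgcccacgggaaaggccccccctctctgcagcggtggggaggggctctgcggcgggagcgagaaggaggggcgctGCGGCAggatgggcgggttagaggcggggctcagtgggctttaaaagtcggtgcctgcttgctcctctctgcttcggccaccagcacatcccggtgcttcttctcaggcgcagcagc
Copg2, chr6:30896745-30897044, minus strand: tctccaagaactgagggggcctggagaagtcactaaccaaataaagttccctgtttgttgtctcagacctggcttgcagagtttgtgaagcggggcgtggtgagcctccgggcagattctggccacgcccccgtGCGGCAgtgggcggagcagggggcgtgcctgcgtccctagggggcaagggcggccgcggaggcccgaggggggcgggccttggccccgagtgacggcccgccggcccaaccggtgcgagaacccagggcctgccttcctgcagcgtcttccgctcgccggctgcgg
Grb10, chr11:12037371-12037670, minus strand: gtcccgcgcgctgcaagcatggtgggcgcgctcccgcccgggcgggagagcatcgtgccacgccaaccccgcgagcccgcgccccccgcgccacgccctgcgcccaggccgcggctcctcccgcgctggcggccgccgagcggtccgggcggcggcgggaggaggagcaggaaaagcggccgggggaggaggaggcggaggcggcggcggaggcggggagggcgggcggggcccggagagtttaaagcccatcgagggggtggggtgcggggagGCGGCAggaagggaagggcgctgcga
Phlda2, chr7:143502475-143502774, minus strand: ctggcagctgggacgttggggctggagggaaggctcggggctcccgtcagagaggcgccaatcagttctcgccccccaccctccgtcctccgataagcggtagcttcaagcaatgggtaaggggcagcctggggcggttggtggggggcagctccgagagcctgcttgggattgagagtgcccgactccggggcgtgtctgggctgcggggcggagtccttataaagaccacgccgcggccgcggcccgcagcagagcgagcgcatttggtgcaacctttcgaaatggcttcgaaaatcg
Snrpn and Snurf, chr7:60005150-60005449, minus strand: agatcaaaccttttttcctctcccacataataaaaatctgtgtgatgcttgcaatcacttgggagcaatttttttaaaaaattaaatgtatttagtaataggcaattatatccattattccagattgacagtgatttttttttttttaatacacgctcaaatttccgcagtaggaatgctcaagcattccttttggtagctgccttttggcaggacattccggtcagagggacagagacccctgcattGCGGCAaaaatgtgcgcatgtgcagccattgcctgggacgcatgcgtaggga

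The hexamer, searched on both strands, was found in 14 of 56 promoter windows of imprinted genes (25.0%) and in 3813 of 32851 windows in the whole table (11.6%). Counted by gene, 13 of 39 imprinted genes (33.3%) and 13.1% of all genes held it in at least 1 window. Of the windows shown, that of Mest held 2 matches, those of Grb10, Copg2 and Snrpn held 1 and those of Peg3 and Phlda2 held 0. Not shown are 3 other windows of Snrpn, 1 of Grb10 and 1 of Mest with 0 matches, and a Mest window 3 bases away with the same 2. The Peg3 window covers 263 of the 300 bases of that of Usp29, which starts on the other strand 96 bases away, so that both genes share 1 promoter region. Imprinted windows were also richer in CpG pairs, with a median of 15.5 against 7.0, and the Grb10 window was the richest of those shown with 45. A match describes the letters only, and methylation or binding was not measured here.

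Of the 50 genes, 39 passed the filter on low counts and were tested, and Dcn, Dlk1, Mkrn3 and Peg13 had at least 50 counts but did not pass it. In the knockout libraries these 39 genes were called lower more often than higher. In endoderm 9 of the 39 were called (23.1%), 8 lower and 1 higher, by edgeR's quasi-likelihood test with Benjamini-Hochberg adjustment at 0.05 over all 11635 genes tested. The background in that comparison was 12.7% of all tested genes called, 6.92% lower and 5.78% higher. In mesoderm 17 of the 39 were called (43.6%), 13 lower and 4 higher, against 19.1% of all tested genes, 10.1% lower and 8.97% higher. The median log2 fold change was −0.18 over the tested imprinted genes and 0.00 over all genes in endoderm, and −0.25 against 0.01 in mesoderm. The 3 libraries of 1 genotype lay wholly above or below those of the other for 13 of the 39 in endoderm and 21 in mesoderm. Over all 11635 tested genes this held for 3513 and 3818, so a lack of overlap is common with 3 libraries a group. These shares are given as a description, with no test of the list, which was chosen with earlier results of these data known.

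By parental copy, the shares called can be set beside the 12.7% and 19.1% of all genes. Of 8 tested maternally expressed genes, 2 fell in knockout endoderm, and 4 fell and 1 rose in knockout mesoderm (25% and 62.5% called). Of 18 tested paternally expressed genes, 4 fell and 1 rose in endoderm, and 7 fell and 3 rose in mesoderm (27.8% and 55.6%). Of 13 tested genes with a tissue- or isoform-dependent imprint, 2 fell in each lineage and 0 rose (15.4% in each), a share near that of all genes. The median log2 change was −0.39 for maternally, −0.10 for paternally expressed and −0.18 for dependent genes in endoderm, and −0.53, −0.43 and −0.12 in mesoderm. Snurf and Snrpn share reads: their counts were equal in 6 of 12 libraries and never differed by more than 9, so that they are 1 measurement, and without Snurf 16 of 38 genes were called in mesoderm, 3 of them higher. Without knockout mesoderm library 3, 11 imprinted genes were called in mesoderm in place of 17, and 1793 of all genes in place of 2224. Leaving out any other mesoderm library gave 12 to 19 imprinted genes.

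**Figure D1:**
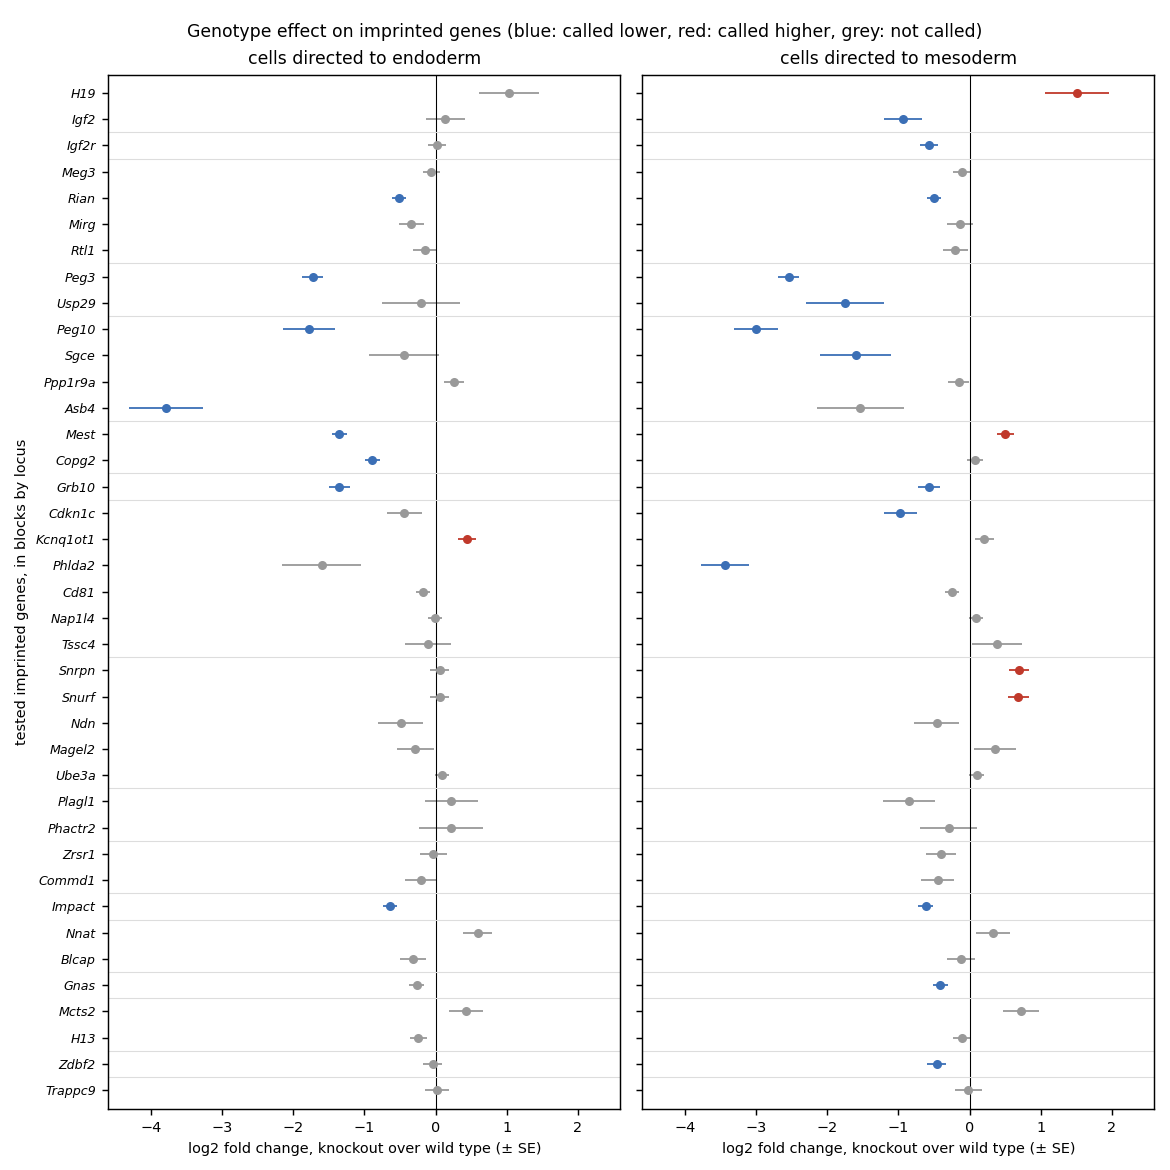
Log2 fold change of knockout over wild type (x axis, ± SE) for each of the 39 tested imprinted genes (y axis, in blocks by locus), in endoderm on the left and mesoderm on the right; blue points were called lower, red points higher, and grey points were not called. In endoderm 8 genes are blue and 1 is red, and in mesoderm 13 are blue and 4 are red, with Mest blue on the left and red on the right.

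The Peg3 domain on chromosome 7 gave the fall with the smallest adjusted p in mesoderm. Peg3 (6703892 to 6730462), a paternally expressed gene for a zinc finger protein, stood at 222, 221 and 221 CPM in wild type endoderm and 68.2, 71.0 and 61.1 in knockout endoderm. It stood at 348, 472 and 578 in wild type mesoderm and 70.9, 77.2 and 91.8 in knockout mesoderm. The 6 knockout libraries thus lay close together whichever lineage the cells were directed to, all below every wild type library, and wild type mesoderm was the highest group. The fall was 3.31-fold in endoderm (log2 fold change −1.73 ± 0.14 SE, adjusted p = 1.5e-08) and 5.83-fold in mesoderm (−2.54 ± 0.14, adjusted p = 4.64e-10). The fall was larger in mesoderm (difference of the log2 changes, endoderm minus mesoderm, 0.81 ± 0.20, adjusted p = 0.0427), but this call ended without any 1 of 9 of the 12 libraries. Those are all wild type endoderm libraries, knockout endoderm 1 and 2, wild type mesoderm 2 and 3 and knockout mesoderm 1 and 2, with adjusted p between 0.0662 and 0.133.

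Usp29 (6730559 to 6967220), a paternally expressed ubiquitin peptidase gene that starts beside Peg3, was near the floor, with 95 counts in all. It stood at 0.876, 1.89 and 1.98 CPM in wild type endoderm and 2.04, 1.36 and 1.01 in knockout endoderm, and the groups overlapped (adjusted p = 0.875). In mesoderm it fell from 2.75, 3.62 and 4.22 to 1.96, 0 and 1.07 CPM (−1.76 ± 0.55 SE, adjusted p = 0.0278), with no overlap between the groups and no count in knockout library 2. That call ended with DESeq2 (adjusted p = 0.0986) and without wild type mesoderm library 2 (0.0534) or 3 (0.151) or knockout mesoderm library 2 (0.118) or 3 (0.0788), and without knockout library 1 the log2 change was −2.59. Usp29 shares exon bases with Zim3 on the other strand. Zim1, the maternally expressed zinc finger gene of the domain, had 41 counts in all.

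In the Peg10-Sgce domain on chromosome 6, Peg10 fell in both lineages, Asb4 in endoderm and Sgce in mesoderm. Peg10 (4747306 to 4760517) is a paternally expressed gene derived from a retrotransposon and is needed for the mouse placenta. Its level was 49.3, 54.7 and 67.4 CPM in wild type endoderm and 19.5, 15.1 and 15.8 in knockout endoderm, and 141, 454 and 491 in wild type mesoderm against 30.3, 46.9 and 57.0 in knockout mesoderm. Knockout libraries lay below all wild type libraries of their lineage, and wild type mesoderm library 1 was far below the other two of its group. The fall was 3.44-fold in endoderm (−1.78 ± 0.36 SE, adjusted p = 0.00183) and 8.04-fold in mesoderm (−3.01 ± 0.31, adjusted p = 5.43e-07). The difference between the lineages was not called (1.22 ± 0.48, adjusted p = 0.312), but it was without wild type mesoderm library 1 (1.61, adjusted p = 0.000221).

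Sgce (4674350 to 4747204), the paternally expressed epsilon-sarcoglycan gene that starts 101 bases from Peg10 on the other strand, had 125 counts in all. It stood at 1.75, 3.44 and 1.70 CPM in wild type endoderm and 3.21, 1.53 and 1.01 in knockout endoderm, which overlapped. In mesoderm it fell from 2.50, 4.65 and 5.74 to 2.24, 1.23 and 0.803 CPM (−1.60 ± 0.50 SE, adjusted p = 0.0272), without overlap. The call ended with DESeq2 (adjusted p = 0.1) and without wild type mesoderm library 2 (0.0534) or 3 (0.223) or knockout mesoderm library 2 (0.0878) or 3 (0.123).

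Asb4 (5383386 to 5433022), a maternally expressed ankyrin repeat and SOCS box gene farther along the domain, showed its main difference in endoderm. It held 95 counts in wild type endoderm and 7 in knockout endoderm, a ratio of 15.1 in CPM terms (95% counting interval 7.07 to 38.7). By library the values were 4.96, 9.46 and 6.52 against 0.291, 0.170 and 1.01 CPM, with no overlap (−3.79 ± 0.52 SE, adjusted p = 2.63e-05, and −4.87 without knockout library 3). The mesoderm values of 1.00, 2.07 and 3.88 CPM in wild type and 0.561, 0.926 and 1.07 in knockout overlapped and were not called (−1.53 ± 0.61, adjusted p = 0.0846), except without wild type library 1 (−1.93, adjusted p = 0.0201). Ppp1r9a (4902872 to 5165661), the neurabin gene between Peg10 and Asb4, stood at 23.9, 24.4 and 26.6 CPM in wild type endoderm, 26.8, 29.4 and 33.3 in knockout endoderm, 28.0, 20.1 and 32.9 in wild type mesoderm and 23.3, 25.3 and 27.8 in knockout mesoderm. It was called in no comparison.

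Mest and Copg2, neighbours on chromosome 6, were higher in wild type endoderm than in any other group. Mest (30733506 to 30748466), a paternally expressed hydrolase-fold gene named for its transcript in mesoderm, stood at 139, 180.2 and 137 CPM in wild type endoderm. It stood at 56.8, 59.8 and 62.5 in knockout endoderm, 44.5, 40.8 and 37.8 in wild type mesoderm and 58.9, 56.2 and 58.9 in knockout mesoderm. Knockout endoderm lay below all wild type endoderm libraries, whereas knockout mesoderm lay above all wild type mesoderm libraries, and the 2 knockout groups overlapped. Mest fell in endoderm (−1.36 ± 0.10 SE, adjusted p = 5.69e-09) and rose in mesoderm (0.50 ± 0.12, adjusted p = 0.00502), and the difference between the lineages was called (−1.86 ± 0.16, adjusted p = 4.72e-07). It was the 1 imprinted gene of 39 called in opposite directions in the 2 lineages, against 0.172% of all tested genes.

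Copg2 (30747554 to 30896815), which encodes a gamma subunit of the coatomer, is transcribed towards Mest from the other strand. Its levels were 78.2, 104 and 85.6 CPM in wild type endoderm and 47.2, 48.7 and 49.9 in knockout endoderm, without overlap (−0.89 ± 0.10 SE, adjusted p = 2.61e-06). In mesoderm 41.8, 48.6 and 43.9 CPM in wild type and 47.4, 45.1 and 47.6 in knockout overlapped (adjusted p = 0.704), and the difference between the lineages was called (−0.97 ± 0.16, adjusted p = 0.00115). The 2 genes share 912 exon bases at their 3′ ends, 23.1% of the exon bases of Mest and 17.8% of those of Copg2. The use of strand in counting is not given in the sources used here, and the part of shared reads in the likeness of the 2 genes was not tested.

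Grb10 (chromosome 11, 11930499 to 12037428), an adaptor that dampens insulin and IGF receptor signalling, is maternally expressed in most tissues and paternally in neurons. It stood at 185, 266 and 177 CPM in wild type endoderm, 69.4, 94.1 and 82.2 in knockout endoderm, 98.8, 121 and 87.4 in wild type mesoderm and 67.9, 73.8 and 62.4 in knockout mesoderm. Knockout libraries lay below wild type libraries in both lineages, and wild type endoderm was the highest group. The fall was 2.55-fold in endoderm (−1.35 ± 0.14 SE, adjusted p = 6.2e-07) and 1.48-fold in mesoderm (−0.57 ± 0.16, adjusted p = 0.0125), where leaving out wild type library 2 ended the call (adjusted p = 0.0613), as did leaving out knockout library 3 (0.0601). The difference between the lineages was not called (−0.78 ± 0.21, adjusted p = 0.0776), but was without wild type endoderm library 3 (adjusted p = 0.0467) or wild type mesoderm library 2 (0.0445).

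**Figure D2:**
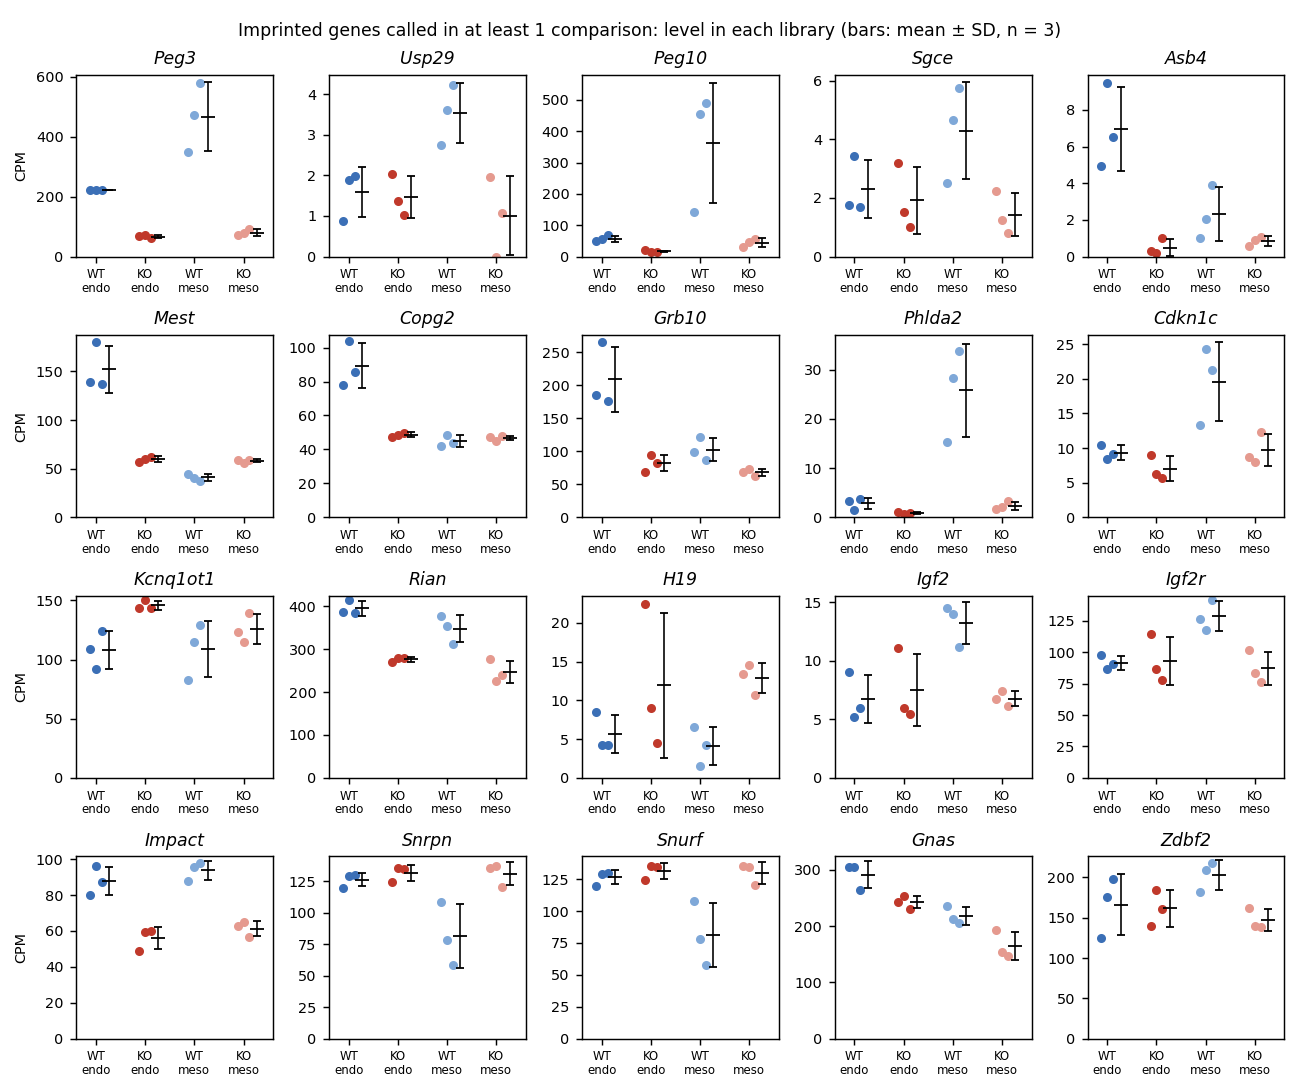
Level in CPM (y axis, from 0, scale of each panel its own) of the 20 imprinted genes called for genotype in at least 1 lineage, in each of the 12 libraries (points) of the 4 groups (x axis), with mean ± SD (bars, n = 3). Peg3, Peg10 and Phlda2 are highest in wild type mesoderm, Mest, Copg2, Grb10 and Asb4 in wild type endoderm, and the 2 knockout groups lie nearer to each other than the wild type groups in each of these panels.

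The Kcnq1ot1 domain at the far end of chromosome 7 holds genes silenced along one copy by the paternally expressed noncoding RNA Kcnq1ot1. Phlda2 (143501545 to 143503145), a maternally expressed gene that limits growth of the placenta, was highest in wild type mesoderm with 15.3, 28.4 and 33.8 CPM, against 1.68, 2.16 and 3.21 in knockout mesoderm. In endoderm it stood at 3.21, 1.55 and 3.68 CPM in wild type and 1.17, 0.679 and 0.811 in knockout. The mesoderm groups were far apart (10.8-fold, −3.44 ± 0.34 SE, adjusted p = 3.22e-07). In endoderm the wild type libraries also lay above the knockout libraries, which were at or near the floor, but the difference was not called (−1.60 ± 0.55, adjusted p = 0.0612), except without wild type library 2 (−1.99, adjusted p = 0.0377) and without a filter on low counts (adjusted p = 0.0069).

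Cdkn1c (143458339 to 143461059), the maternally expressed gene for the cell cycle inhibitor p57, was likewise highest in wild type mesoderm. It fell in mesoderm from 13.3, 24.3 and 21.3 to 8.69, 8.02 and 12.3 CPM (−0.97 ± 0.23 SE, adjusted p = 0.00414), while 10.5, 8.43 and 9.07 CPM in wild type endoderm and 9.04, 6.28 and 5.68 in knockout endoderm overlapped (adjusted p = 0.299). Kcnq1ot1 (143213111 to 143296547) rose in endoderm, from 109, 91.7 and 124 to 144, 150.5 and 144 CPM (0.44 ± 0.13, adjusted p = 0.0274). In mesoderm 83.1, 115 and 129 CPM in wild type and 124, 114 and 139.7 in knockout overlapped (adjusted p = 0.314). In endoderm Kcnq1ot1 was no longer called once wild type library 1 (adjusted p = 0.0656), wild type library 2 (0.189), knockout library 2 (0.0857) or knockout library 3 (0.0601) was left out.

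The other tested genes of the domain showed no called difference. Cd81, a tetraspanin, stood at 56.6, 53.3 and 50.7 CPM in wild type endoderm, 51.3, 47.9 and 43.0 in knockout endoderm, 65.5, 61.0 and 63.5 in wild type mesoderm and 56.4, 52.5 and 51.9 in knockout mesoderm. Nap1l4, a histone chaperone, varied little over the 12 libraries, at 53.1, 48.5 and 54.7 CPM in wild type endoderm, 54.2, 50.6 and 50.9 in knockout endoderm, 48.5, 58.9 and 54.0 in wild type mesoderm and 55.8, 60.2 and 54.9 in knockout mesoderm. Tssc4 stood at 11.4, 7.05 and 2.55 CPM in wild type endoderm, 7.29, 6.62 and 5.68 in knockout endoderm, 5.25, 3.62 and 6.92 in wild type mesoderm and 5.61, 8.02 and 8.56 in knockout mesoderm, with genotypes overlapping in both lineages. None of these 3 genes was called in any of the 5 comparisons by edgeR. Kcnq1, a potassium channel gene within which Kcnq1ot1 lies, Slc22a18, a transporter gene, and Ascl2, a trophoblast factor, held 13, 20 and 23 counts in all.

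Phlda2 and Peg10 are strongly expressed in the placenta, and the summed level of trophoblast markers moved with them. The summed level of 6 trophoblast markers was 6.52 to 9.98 CPM in wild type endoderm, 0.811 to 2.62 in knockout endoderm, 18.5 to 36.3 in wild type mesoderm and 2.16 to 5.08 in knockout mesoderm. Library 1 was the lowest of wild type mesoderm for the summed markers, for Phlda2 and for Peg10. Of the 6, Cdx2 (also a gene of posterior mesoderm), Gata3 and Tfap2c carried the sum in wild type mesoderm, with 15.3, 6.26 and 7.87 CPM on average. Elf5 and Prl3d1, which define trophoblast stem cells and giant cells, held 0 counts there, and 3 of the 6 passed the filter, all lower in knockout mesoderm. Krt7 went another way, with 0.511 CPM on average in wild type mesoderm, 0.942 in knockout mesoderm, 1.98 in wild type endoderm and 0.319 in knockout endoderm, and Elf5 held 2 counts in knockout mesoderm. The sum of 5 mesoderm and streak markers moved alike, at 173, 305 and 412 CPM in wild type mesoderm libraries 1 to 3. It was 117 to 143 CPM in wild type endoderm, 4.585 to 6.70 in knockout endoderm and 7.41 to 13.1 in knockout mesoderm. The part of cells of either kind in the result was not tested. In bulk samples fewer cells of a type and less RNA per cell cannot be told apart.

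**Figure D3:**
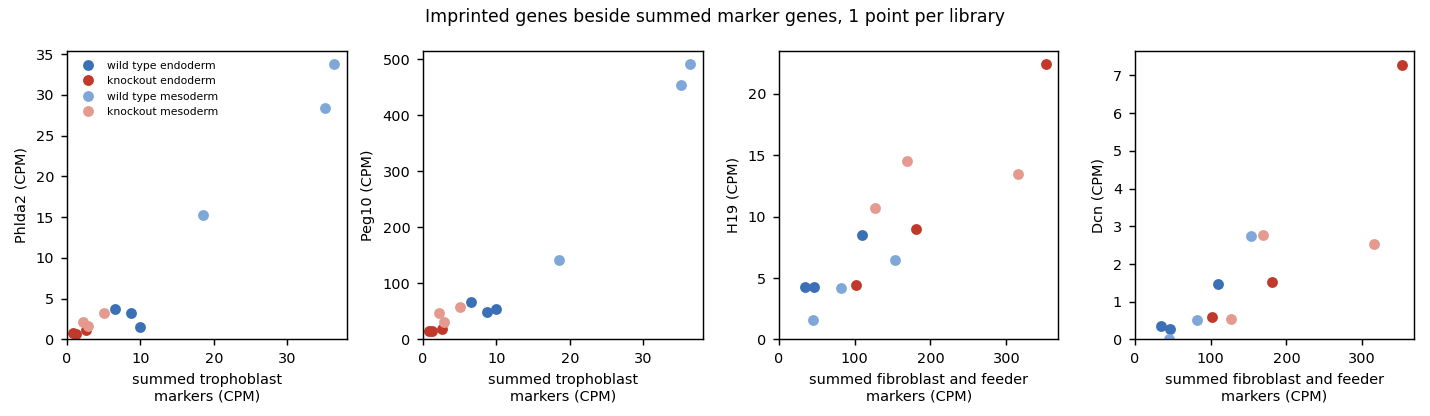
Level of Phlda2 and Peg10 against the summed level of 6 trophoblast markers, and of H19 and Dcn against the summed level of 12 fibroblast and feeder markers (all axes in CPM), with 1 point per library in the colour of its group. The 3 wild type mesoderm libraries are the highest for Phlda2, Peg10 and the trophoblast sum, and knockout endoderm library 1 is the highest for H19, Dcn and the fibroblast sum.

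The growth factor Igf2, its neighbour H19 and the receptor Igf2r differed between genotypes in mesoderm. H19 (chromosome 7, 142575530 to 142578146), a maternally expressed noncoding RNA, stood at 6.5, 1.55 and 4.22 CPM in wild type mesoderm and 13.5, 14.5 and 10.7 in knockout mesoderm. The value of 1.55 is at the floor of that library, and the wild type mesoderm group held 54 counts of H19. Igf2 (142650768 to 142666816), paternally expressed, stood at 14.5, 13.9 and 11.1 CPM in wild type mesoderm and 6.73, 7.41 and 6.15 in knockout mesoderm. Neither pair of groups overlapped, and the 2 genes went opposite ways: H19 rose (1.51 ± 0.45 SE, adjusted p = 0.0211) and Igf2 fell (−0.94 ± 0.26, adjusted p = 0.015). H19 lost its call when wild type library 2 (adjusted p = 0.0606), wild type library 3 (0.0896), knockout library 1 (0.0547) or knockout library 2 (0.0672) was left out, and Igf2 without knockout library 3 (0.0575). Of the exon bases of Igf2, 62.8% are shared with Gm49394 on the same strand, so that its counts may be split or shared.

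In endoderm the 2 genes were not called. H19 stood at 8.46, 4.30 and 4.25 CPM in wild type and 22.4, 9.0 and 4.46 in knockout (1.03 ± 0.42 SE, adjusted p = 0.122), and Igf2 at 9.05, 5.16 and 5.95 in wild type and 11.1, 5.94 and 5.48 in knockout (adjusted p = 0.819). The groups overlapped for both. Knockout library 1 set the H19 value: without it the log2 change was 0.32, and without knockout library 3 it was 1.44 (adjusted p = 0.015). That library also had the highest sum of 12 fibroblast and feeder markers, 352.9 CPM against 102 to 181 in the other knockout endoderm libraries. The sum was 34.9 to 110 in wild type endoderm, 45.0 to 153 in wild type mesoderm and 127 to 316 in knockout mesoderm. Of 10 tested markers of that list, 5 were called higher in knockout endoderm (5.78% of all tested genes) and 1 in knockout mesoderm (8.97% of all). All 10 had a log2 change above 0 in both lineages, with medians of 1.47 in endoderm and 0.915 in mesoderm. Lum and Twist2 held 5 counts or fewer per group. H19 and Igf2 are strongly expressed in fibroblasts of the embryo, and the part of such cells in their values was not tested.

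Igf2r (chromosome 17, 12682406 to 12769706), the maternally expressed receptor that removes IGF2, fell in mesoderm. It stood at 127, 118 and 142 CPM in wild type mesoderm and 102, 83.6 and 76.5 in knockout mesoderm, without overlap (−0.57 ± 0.13 SE, adjusted p = 0.00256). In endoderm 97.8, 86.7 and 90.4 CPM in wild type and 114, 87.0 and 78.3 in knockout overlapped (0.02 ± 0.13, adjusted p = 0.96). The difference between the lineages was not called (0.59 ± 0.18, adjusted p = 0.129). Airn, the paternally expressed RNA that overlaps the start of Igf2r, had 36 counts in all.

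The Dlk1-Meg3 domain on chromosome 12 holds a chain of maternally expressed noncoding RNAs, among which only Rian was called. Rian (109603945 to 109661716), which hosts small nucleolar RNAs, stood at 386, 415 and 384 CPM in wild type endoderm and 269.6, 279.9 and 279 in knockout endoderm. It stood at 376, 355 and 313 in wild type mesoderm and 276, 225 and 239 in knockout mesoderm. Knockout libraries lay below wild type libraries in both lineages by a like amount, with a log2 change of −0.52 ± 0.10 (adjusted p = 0.000903) in endoderm and −0.49 ± 0.10 (adjusted p = 0.00117) in mesoderm and −0.02 ± 0.14 between them.

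The RNAs on either side of Rian gave other values. Meg3 (109540996 to 109571729), upstream on the same strand, stood at 192, 207 and 226 CPM in wild type endoderm and 162, 230.1 and 205 in knockout endoderm. In mesoderm it stood at 162, 179.8 and 204 in wild type and 169.9, 156 and 183 in knockout. Mirg (109734981 to 109749458), a host of microRNAs downstream, stood at 15.2, 18.8 and 18.1 CPM in wild type endoderm, 12.8, 11.7 and 16.8 in knockout endoderm, 16.3, 21.7 and 16.5 in wild type mesoderm and 17.4, 17.6 and 13.1 in knockout mesoderm. The log2 differences in endoderm and mesoderm were −0.06 ± 0.12 and −0.11 ± 0.12 for Meg3 and −0.34 ± 0.17 and −0.14 ± 0.18 for Mirg, none of them called, and whether Rian differs from them was not tested. Rtl1, a paternally expressed retrotransposon-like gene, stood at 57.5, 47.8 and 41.4 CPM in wild type endoderm, 38.8, 56.7 and 34.5 in knockout endoderm, 42.8, 44.4 and 51.0 in wild type mesoderm and 44.9, 47.5 and 30.0 in knockout mesoderm, and was not called. Its span overlaps those of Meg3 and Rian on the other strand, and its exons share bases with microRNA genes there, such as Mir433. The use of strand in counting is not given, and the part of reads from that strand in the Rtl1 counts was not tested. Dlk1 (109452485 to 109463336), which encodes a relative of the Notch ligands, was at 0.292, 0.344 and 1.42 CPM in wild type endoderm, 0, 0.509 and 0.203 in knockout endoderm, 2.75, 2.07 and 0.844 in wild type mesoderm and 5.05, 2.78 and 1.60 in knockout mesoderm. Of the 6 mesoderm libraries 5 lay above all endoderm libraries, and Dlk1 did not pass the filter.

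The Snrpn domain on chromosome 7 carried the rises of mesoderm together with H19 and Mest. Snrpn (59982495 to 60450177), the paternally expressed gene for the splicing protein SmN, stood at 120.0, 129 and 129.8 CPM in wild type endoderm and 124, 135 and 134 in knockout endoderm, which overlapped (adjusted p = 0.857). It stood at 108, 78.0 and 58.1 in wild type mesoderm and 136, 137 and 120.4 in knockout mesoderm. The wild type mesoderm libraries were the 3 lowest of the 12 and spread most, and the other 9 lay between 120.0 and 137 CPM. The rise in mesoderm was 1.62-fold (0.70 ± 0.15 SE, adjusted p = 0.0017), and Snurf, whose 216 exon bases all lie in exons of Snrpn, gave 0.69 ± 0.15 (adjusted p = 0.00186) from nearly the same reads, with 108, 78.0 and 58.1 CPM in wild type mesoderm and 135, 135 and 120.1 in knockout mesoderm, and 120.0, 129 and 129.8 in wild type endoderm and 124, 135 and 134 in knockout endoderm. The difference between the lineages was not called (−0.64 ± 0.20, adjusted p = 0.156), but was without wild type mesoderm library 1 (−0.94, adjusted p = 0.000736).

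No other tested gene of the Snrpn domain was called in any of the 5 comparisons. Ndn, the paternally expressed necdin gene, stood at 5.54, 6.71 and 4.53 CPM in wild type endoderm, 3.50, 3.91 and 4.67 in knockout endoderm, 6.25, 2.58 and 9.62 in wild type mesoderm and 4.77, 5.86 and 4.55 in knockout mesoderm. Magel2, a paternally expressed MAGE family gene, stood at 6.42, 11.7 and 8.22 CPM in wild type endoderm, 5.83, 8.15 and 7.91 in knockout endoderm, 8.01, 7.24 and 4.56 in wild type mesoderm and 10.1, 8.64 and 5.62 in knockout mesoderm. Both genes overlapped between genotypes in each lineage. Ube3a, a ubiquitin ligase gene that is maternally expressed in neurons, stood at 72.4, 81.2 and 72.3 CPM in wild type endoderm, 77.5, 83.2 and 80.3 in knockout endoderm, 67.0, 61.5 and 70.7 in wild type mesoderm and 82.7, 69.4 and 64.0 in knockout mesoderm. Its log2 difference was 0.09 ± 0.10 (SE) in endoderm and 0.10 ± 0.11 in mesoderm. Mkrn3, a paternally expressed RING finger gene at 2.92, 1.72 and 1.70 CPM in wild type endoderm, 2.04, 0.509 and 1.01 in knockout endoderm, 2.25, 2.07 and 2.36 in wild type mesoderm and 2.80, 1.85 and 1.34 in knockout mesoderm, did not pass the filter, and Peg12 had 26 counts in all.

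Impact, Gnas and Zdbf2, at loci of their own, were lower in knockout mesoderm. Impact (chromosome 18, 12954690 to 12992950), a paternally expressed inhibitor of the stress kinase GCN2, stood at 80.3, 96.0 and 87.3 CPM in wild type endoderm and 49.0, 59.3 and 60.2 in knockout endoderm, and at 87.8, 95.6 and 97.9 in wild type mesoderm and 62.5, 65.1 and 56.5 in knockout mesoderm. Neither pair of groups overlapped, and the fall was of like size in both lineages (−0.64 ± 0.10 SE, adjusted p = 0.000144, and −0.61 ± 0.10, adjusted p = 0.000248). Gnas (chromosome 2, 174284320 to 174346744), which encodes the stimulatory G protein alpha subunit and imprinted isoforms, stood at 304, 306 and 265 CPM in wild type endoderm and 243, 253 and 231 in knockout endoderm, and at 235, 212 and 206 in wild type mesoderm and 192, 153 and 146 in knockout mesoderm. It was lower in all knockout than in all wild type libraries of each lineage, with a log2 change of −0.41 ± 0.11 (adjusted p = 0.00951) in mesoderm and a difference of −0.27 ± 0.10 (adjusted p = 0.0988), not called, in endoderm. Zdbf2 (chromosome 1, 63200358 to 63314576), a paternally expressed zinc finger gene, fell in mesoderm from 182, 209 and 217 to 162, 139 and 139 CPM (−0.46 ± 0.14, adjusted p = 0.0202), while 124, 176 and 199 in wild type endoderm and 139, 184 and 161 in knockout endoderm overlapped. The Gnas call in mesoderm ended without knockout library 2 (adjusted p = 0.0572) or 3 (0.0692), and that of Zdbf2 when wild type library 2 (0.0552), wild type library 3 (0.0826), knockout library 2 (0.0871) or knockout library 3 (0.0797) was left out.

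Across loci, 5 of the 39 genes, Peg3, Peg10, Grb10, Rian and Impact, fell in both lineages (3.76% of all tested genes did), and 0 rose in both (3.53% of all). Asb4, Copg2 and Kcnq1ot1 were called in endoderm and not in mesoderm (5.24% of all), and 11 genes in mesoderm and not in endoderm (11.7% of all). A direct test of the difference called 3 of 39 genes (7.69%), Peg3, Mest and Copg2, against 1.4% of all tested genes. The difference, endoderm minus mesoderm, was above 0 for 1 of these (Peg3, 0.627% of all genes), which fell less in endoderm. It was below 0 for 2 (Mest and Copg2, 0.774% of all genes), which fell in endoderm only. Mest and Copg2 share 912 exon bases, and the Peg3 call ended without any 1 of 9 of the 12 libraries. For the other genes called in 1 lineage, the difference between the lineages did not pass the test.

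In wild type cells the direction of differentiation itself separated imprinted genes. Of the 39, 13 were called between endoderm and mesoderm (33.3%), 7 higher in endoderm and 6 lower, against 9.84% of all tested genes, 4.41% higher and 5.43% lower. Mest (1.91 ± 0.11 log2 ± SE, adjusted p = 2.63e-10), Asb4 (1.5 ± 0.41, adjusted p = 0.0184), Grb10 (1.06 ± 0.14, adjusted p = 2.43e-05) and Copg2 (1.02 ± 0.11, adjusted p = 7.82e-07) were higher in endoderm, with Snrpn, Snurf and Gnas at smaller size. Phlda2 (−3.29 ± 0.32, adjusted p = 2.28e-07), Peg10 (−2.66 ± 0.30, adjusted p = 1.67e-06) and Peg3 (−1.08 ± 0.13, adjusted p = 6.54e-06) were higher in mesoderm. So were the growth genes Cdkn1c (−1.05 ± 0.22, adjusted p = 0.00282), Igf2 (−0.99 ± 0.26, adjusted p = 0.0147) and Igf2r (−0.51 ± 0.13, adjusted p = 0.00962). The calls of Asb4, Gnas, Igf2 and Igf2r each ended without at least 1 library: wild type endoderm 2 for all 4 (adjusted p between 0.0631 and 0.188), wild type endoderm 3 for Igf2 (0.0557), wild type mesoderm 1 (0.0784) and 2 (0.056) for Asb4 and wild type mesoderm 3 for Igf2r (0.0659) and Gnas (0.0537). Without wild type mesoderm 3 the Asb4 value was 2.36. DESeq2 did not call Asb4 (adjusted p = 0.113) or Igf2 (0.0536).

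In knockout cells 1 of the 39 was called between endoderm and mesoderm (2.56%), Gnas, higher in endoderm (0.56 ± 0.11 log2 ± SE, adjusted p = 0.00561), and 0 were called lower. The background was 1.85% of all tested genes called, 0.945% higher and 0.902% lower. Mest, at 1.91 in wild type, gave 0.04 ± 0.11, and Copg2, Snrpn, Igf2 and Igf2r lay between 0.01 and 0.09. Peg10 (−1.43 ± 0.38, adjusted p = 0.0533) and Phlda2 (−1.45 ± 0.59, adjusted p = 0.266) stayed lower in endoderm without being called. Without knockout mesoderm library 3 the Gnas call ended (adjusted p = 0.0712), and without knockout mesoderm library 1 that of Peg10 was made (0.0319). All 13 genes called between the lineages in wild type were also called for genotype in at least 1 lineage. These comparisons share their wild type libraries, so the overlap is a description and not separate support. The like overlap over all tested genes was not counted, so it cannot be read as particular to imprinted genes.

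**Figure D4:**
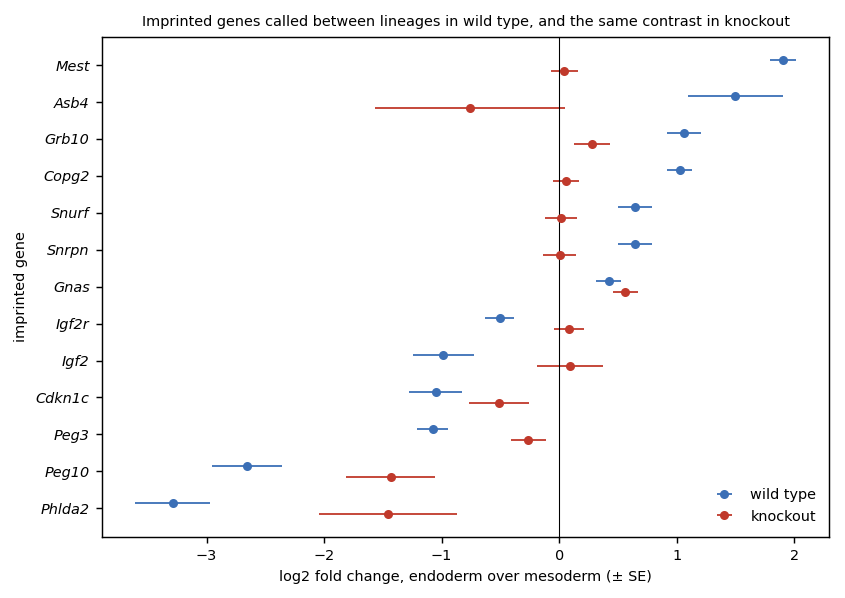
Log2 fold change of endoderm over mesoderm (x axis, ± SE) for the 13 imprinted genes called in that comparison in wild type (y axis), in wild type (blue) and knockout (red) cells. The wild type values run from −3.29 for Phlda2 to 1.91 for Mest, and the red points of Mest, Copg2, Snrpn, Snurf, Igf2 and Igf2r lie within 0.09 of 0.

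The marker genes of the lineages followed the same groups. The summed level of 5 definitive endoderm markers was 128 to 209 CPM in wild type endoderm and 2.64 to 5.83 in knockout endoderm. That of 5 mesoderm and streak markers was 173 to 412 CPM in wild type mesoderm, lowest in library 1, and 7.41 to 13.1 in knockout mesoderm, and 117 to 143 and 4.58 to 6.70 in wild type and knockout endoderm. The sum of 5 pluripotency markers lay between 300.2 and 385 CPM over the 12 libraries, and 4 of the 5 had a higher mean in the knockout in both lineages. Of these Sox2 passed the test in both lineages and Zfp42 in endoderm, while Nanog fell in both. The knockout groups thus lacked most of the lineage marker signal that the wild type groups had, and the part of cell makeup in the imprinted gene values was not tested.

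Levels set per exon length allow genes to be compared within a group. Snurf is left out, since its 216 bases take reads of the longer Snrpn. On this scale, in CPM per kilobase of exon, the highest in wild type endoderm were Snrpn (58.5 ± 2.55, SD), Mest (38.6 ± 6.14), Gnas (26.1 ± 2.08), Grb10 (23.0 ± 5.42) and Rian (21.7 ± 0.931). In wild type mesoderm they were Peg10 (54.2 ± 28.8), Snrpn (37.7 ± 11.7), Peg3 (35.0 ± 8.65), Phlda2 (23.0 ± 8.49) and Cd81 (22.0 ± 0.794). Differences between neighbours in these orders were smaller than the larger of their SDs from Gnas to Rian in endoderm, and from Peg10 to Peg3 and from Phlda2 to Cd81 in mesoderm. In the knockout groups Snrpn led at 60.8 ± 2.89 and 60.8 ± 4.33, and Gnas (21.7 ± 0.975) in endoderm and Cd81 (18.6 ± 0.843) in mesoderm came next. In knockout mesoderm Nap1l4 stood at 18.4 ± 0.918, so that its order with Cd81 is within their SDs.

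Genes that set or keep imprints were described from a list of 30, of which 27 were tested. In knockout endoderm 2 rose and 2 fell, and in knockout mesoderm 4 rose and 0 fell, which at 14.8% in each lineage stood beside 12.7% and 19.1% of all tested genes. Zfp57, which holds methylation at imprinted control regions, fell in endoderm from 6.58 ± 0.479 to 3.28 ± 0.712 CPM (SD, n = 3; log2 change −1.04 ± 0.28 SE, edgeR adjusted p = 0.0179) and gave 8.80 ± 0.807 and 6.65 ± 2.61 CPM in mesoderm. Its partner Trim28 stood at 359.6 ± 15.3 and 356 ± 15.3 CPM in endoderm and was not called. Tet1, an enzyme that oxidises methylated cytosine, rose in both lineages (0.61 ± 0.12, adjusted p = 0.00123, and 0.63 ± 0.12, adjusted p = 0.000771). So did Hells, a remodeller needed for DNA methylation (0.32 ± 0.10, adjusted p = 0.0474, and 0.52 ± 0.11, adjusted p = 0.00123).

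Other regulators were called in 1 lineage. The methyltransferase Dnmt3b rose in mesoderm from 309 ± 170 to 693 ± 78.5 CPM (1.16 ± 0.22, edgeR adjusted p = 0.000728), and its cofactor Dnmt3l from 4.10 ± 1.23 to 10.3 ± 6.86 CPM (1.38 ± 0.42, adjusted p = 0.0247). Smchd1, a chromatin protein with a part in silencing at some imprinted clusters, fell in endoderm (−0.32 ± 0.09, adjusted p = 0.0183). Dnmt1, Uhrf1, Ctcf, Arid4a, Rb1, Sin3a and Hdac1 were not called for genotype in either lineage. None of the 27 was called for a difference of the genotype effect between lineages.

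A second list of 42 imprinted genes outside the 50 was in the file with 37 genes, of which 18 were tested. In knockout endoderm 3 rose and 2 fell, and in knockout mesoderm 4 rose and 3 fell (27.8% and 38.9%, against 12.7% and 19.1% of all tested genes). Their median log2 change was 0.20 in endoderm, with 12 of 18 above 0, and 0.10 in mesoderm, with 10 of 18 above 0, whereas both medians of the 39 lay below 0. Sfmbt2, a paternally expressed Polycomb-associated gene, fell in both lineages (−1.88 ± 0.34, adjusted p = 0.000654, and −1.80 ± 0.28, adjusted p = 8.19e-05), as did Casd1, a neighbour of Sgce (−0.59 ± 0.18, adjusted p = 0.0351, and −0.62 ± 0.20, adjusted p = 0.0321). Adam23, a neighbour of Zdbf2, rose in both (1.30 ± 0.16, adjusted p = 6.00e-06, and 1.37 ± 0.17, adjusted p = 5.68e-06), and so did Gab1, an adaptor of receptor tyrosine kinases (0.54 ± 0.15, adjusted p = 0.0201, and 0.70 ± 0.14, adjusted p = 0.00137). Atp10a, a phospholipid flippase gene beside Ube3a, rose in endoderm (0.79 ± 0.22, adjusted p = 0.0194). Calcr, the calcitonin receptor gene (1.35 ± 0.23, adjusted p = 0.00023), and Ago2, an Argonaute gene (0.34 ± 0.10, adjusted p = 0.0195), rose in mesoderm, where Slc38a4, an amino acid transporter gene, fell (−1.09 ± 0.23, adjusted p = 0.00185).

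The remaining 19 tested imprinted genes were called in none of the 5 comparisons by edgeR. Besides those named above they are Plagl1 and Phactr2, Zrsr1 and Commd1, Nnat and Blcap, Mcts2 and H13, and Trappc9. Zrsr1, Nnat and Mcts2 are short paternally expressed genes inside the spans of Commd1, Blcap and H13, and the noncoding RNA Peg13 lies inside Trappc9. Nnat, the neuronatin gene, stood at 8.46, 6.02 and 7.93 CPM in wild type endoderm and 12.5, 10.4 and 10.6 in knockout endoderm. The groups did not overlap, as for 3513 of all 11635 tested genes there, and Nnat was not called (0.59 ± 0.20, adjusted p = 0.0565). Its host Blcap stood at 16.1, 12.6 and 16.4 CPM in the same wild type and 11.9, 13.1 and 10.3 in the same knockout libraries (−0.32 ± 0.18, adjusted p = 0.294). Mcts2 stood at 6.75, 3.10 and 6.41 CPM in wild type mesoderm and 8.41, 11.4 and 9.37 in knockout mesoderm (0.72 ± 0.25, adjusted p = 0.0507), and was called without wild type mesoderm library 1 (adjusted p = 0.0448). Its host H13, a signal peptide peptidase gene, stood at 33.0, 32.0 and 36.1 CPM in wild type mesoderm and 31.4, 35.5 and 28.4 in knockout mesoderm (−0.11 ± 0.13, adjusted p = 0.626).

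Over the 12 libraries, Plagl1, a paternally expressed zinc finger gene, ranged from 1.55 to 5.23 CPM, and Phactr2, a phosphatase and actin regulator gene, from 0.850 to 4.39. Zrsr1, related to the splicing factor U2AF, ranged from 6.73 to 12.8 CPM, its host Commd1 from 7.57 to 14.9, and Trappc9, a trafficking gene, from 8.56 to 14.3. Of the genes with at least 50 counts that did not pass the filter, Peg13 ranged from 0.844 to 3.25 CPM. Dcn, the decorin gene of connective tissue, stood at 1.46, 0.344 and 0.283 CPM in wild type endoderm, 7.29, 1.53 and 0.609 in knockout endoderm, 2.75, 0 and 0.506 in wild type mesoderm and 2.52, 2.78 and 0.535 in knockout mesoderm. Knockout endoderm library 1, the highest for Dcn, was also the highest for the fibroblast and feeder markers.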

How the data were processed

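Total RNA from 12 libraries was depleted of ribosomal RNA and sequenced with a directional kit on an Illumina HiSeq instrument, per the labels' protocols. The deposited values are raw counts of reads for each gene, in whole numbers. STAR, DESeq2 and the build mm10 are named for it, per the submitters' processing notes; what is not given in the sources used here is their roles and versions, the counting program, its annotation and its use of strand. Groups were taken from the sample titles.

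Of 19680 genes, 27 with a cell that was no number were left out, none of them a member. Rn45s was removed before library sizes were summed and was not tested. Counts were scaled by TMM, filtered (filterByExpr, minimum count 10) and tested with edgeR 4.0.16 (limma 3.58.1, R 4.3.3) in 1 fit of 4 group means over 12 libraries, with Benjamini-Hochberg adjustment over 11635 genes and a threshold of 0.05. The standard error of a log2 fold change was taken as its size over the square root of F. The biological coefficient of variation was 9.71%. Counting intervals and the floor of 3 counts cover counting error only. Scripts were tested on simulated data with known fold changes. Alternatives were DESeq2 1.42.0, other scalings and filters, the compared groups alone, the replicate number as a block and leaving out each library.

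The members, gene lists and tests were chosen with earlier results of these data known. Values in every library were given for genes called in at least 1 comparison and for their locus partners with at least 50 counts in all, and ranges or totals for the others, except that values by library of Dcn and, in 1 lineage, of Nnat, Blcap, Mcts2 and H13 are also given, chosen after they were seen. Exon lengths, overlaps and positions came from the reference annotation of GRCm38.p6, and promoter sequences from RefSeq on the same build.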

Additional observations from a re-analysis of the deposited data

Results flagged for a closer look

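For 3 imprinted genes the genotype effect differed between the lineages by edgeR's test of the difference, with Benjamini-Hochberg adjustment over all genes. The difference is the log2 change in endoderm minus that in mesoderm. For Mest it was −1.86 ± 0.16 (SE, adjusted p = 4.72e-07), with all 3 knockout endoderm libraries below and all 3 knockout mesoderm libraries above the wild type libraries of their lineage. For Copg2, which shares exon bases with Mest, it was −0.97 ± 0.16 (adjusted p = 0.00115). For Peg3, lower in all knockout libraries of both lineages, it was 0.81 ± 0.20 (adjusted p = 0.0427), but this call ended without any 1 of 9 of the 12 libraries.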

How the results depend on the processing

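Calls of the 39 tested imprinted genes were followed through the alternatives. Kept under every alternative run were 8 of 9 in knockout endoderm, 10 of 17 in knockout mesoderm and 9 of 13 between the lineages in wild type. For the difference of the genotype effects 2 of 3 were kept, and between the lineages in knockout 0 of 1. None of these calls turned direction. Calls of the imprint regulators, of the second list of imprinted genes and of the markers were not followed in this way. For the members not called, 29 of the results under alternatives became calls and 99 changed sign without being called.

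Over all genes, DESeq2 called 914 in knockout endoderm in place of 1478, 1448 in knockout mesoderm in place of 2224 and 127 between the lineages in knockout in place of 215. Without a filter on low counts, 377 genes were called for the difference of the genotype effects in place of 163, and 483 between the lineages in knockout. Leaving out 1 library at a time gave 835 to 1320 calls in endoderm, 1480 to 2461 in mesoderm, 104 to 354 for the difference, 740 to 1391 between the lineages in wild type in place of 1145 and 59 to 237 in knockout. Among imprinted genes the same gave 8 to 9, 11 to 19, 2 to 6, 9 to 13 and 1 to 2 calls. Without a filter, 8 imprinted genes were called for the difference and 3 between the lineages in knockout, where DESeq2, the fit without Mir6236 and Lars2 in library sizes and the fit on the compared groups alone gave 2 each. In knockout endoderm 12 imprinted genes and 1828 of all genes were called without a filter, and in knockout mesoderm 15 imprinted genes with DESeq2.

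The replicate numbers were not taken to pair the libraries. Same-numbered libraries of 2 groups deviated together with r between 0.011 and 0.202, over 0.1 in 6 of 12 pairs, and in 20 of 24 checks a library correlated best with its own number, as a hint from the data. With the replicate number as a block, 255 genes and 6 imprinted genes were called for the difference. Between the lineages in knockout 377 genes and 2 imprinted genes were called, and in knockout endoderm 1807 genes and 12 imprinted genes. No call of an imprinted gene was lost while 8 were gained.

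Depth limits the low genes: a count of 3 corresponds to 0.506 to 1.55 CPM. Differences in Usp29, Sgce, Asb4, Dlk1, Mkrn3, Peg13, Dcn and the 7 genes under 50 counts thus rest on few reads. So does the wild type side of the H19 difference in mesoderm, with 54 counts.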

Other observations

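Without the filter on low counts, 2 of the 11 untested imprinted genes passed the threshold in 1 comparison each by edgeR's quasi-likelihood test. Over all genes, 1828 were then called in knockout endoderm and 483 between the lineages in knockout. The share of all low genes called in this way was not counted, so 2 of 11 cannot be read as particular to imprinted genes. Dcn was higher in knockout than in wild type endoderm by 2.08 ± 0.58 (log2 ± SE, adjusted p = 0.00574), on 79 counts in all and with knockout endoderm library 1 far above the other libraries. Dlk1 was lower in endoderm than in mesoderm in knockout cells by a log2 change of −3.35 (adjusted p = 0.000102), on 65 counts in all. These values were chosen after the results without a filter had been seen.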
